A study of Mus musculus with 6 samples.

Results

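Voltage-gated potassium channels were examined through 26 probe sets, out of 45101 on the array, that the platform annotation assigned to 8 genes: Kcna1, Kcna2, Kcna4, Kcnc1, Kcnc2, Kcnd2, Kcnq3 and Kcnma1. All probe sets carrying one of these symbols were taken, whatever their signal. The study profiled RNA from mouse hippocampus on 6 whole-genome arrays, with the values given as 1 signal per probe set on a linear scale. In the HuD group (3 arrays) RNA was recovered on protein-G beads with an anti-myc antibody directed at transgenic HuD, in the IgG group (2 arrays) the beads carried non-immune IgG, and the input group (1 array) was total RNA. The labels give no strain, age, transgene promoter or number of animals, do not say whether the arrays of a group came from separate animals, and do not say from which animals the input came. The p-values therefore cover no more than the variation from array to array, whatever its source.

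These channels open when the membrane depolarises and let potassium leave the cell, which brings the membrane back towards rest. Kcna genes encode Kv1 subunits of axons and terminals, Kcnc genes the Kv3 subunits that let fast-spiking cells fire at high rates, and Kcnd2 the Kv4.2 subunit of the dendritic A-type current of pyramidal cells. Kcnq3 encodes a Kv7 subunit of the M-current, and Kcnma1 the large-conductance BK channel, which is opened by voltage and calcium together. HuD is a protein of the ELAV family that neurons make from Elavl4 and is known for binding U-rich and AU-rich parts of mRNAs, mostly after the stop codon.

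Each array had been scaled by the authors to a common level, so a higher or lower value is relative to the other RNAs on that array, and a lower share need not mean less RNA recovered. Elavl4 RNA, the check of the pulldown, had signals of 2294, 2010 and 1689 on the HuD arrays, 766 and 642 on the IgG arrays and 597 on the input at its brightest probe set, and all 3 of its probe sets were called higher with HuD. The annotation does not tell whether these probe sets also detect mRNA made from the transgene. The 8 markers of hippocampal subfields had input signals from 9.80 (Prox1) to 2501 (Calb1). Ttr, a choroid plexus marker, was bright on every array, at 8913 on the input. By brightest probe set, where 28.2% of all genes were called lower with HuD than with IgG and 16% higher, 5 of 7 oligodendrocyte, 4 of 7 astrocyte and 3 of 5 tested microglial markers were lower, and the astrocyte marker Gja1 was higher (0.86). The IgG arrays differed from each other more than the HuD arrays did, with an SD of the log2 difference across tested probe sets of 0.60 against 0.348 to 0.458.

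Of the 26 probe sets 21 had a mean log2(signal + 32) above the median of all probe sets and were tested, and each of the 8 genes had at least 1 of them. The other 5 were dim, with signals between 0.694 and 46.0 on all arrays, and belonged to Kcna2 (2 probe sets), Kcna1, Kcnc1 and Kcnd2 (1 each). The dimmest tested member, 1422255_at of Kcna4, had a mean of 5.83 on that scale and the brightest untested one, 1422197_at of Kcna2, one of 5.61, around a limit of 5.78. Without the IgG arrays 20 of the 21 would still lie above this limit, and 1457018_at of Kcnma1, at 5.77, would not.

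HuD against IgG asked which channel RNAs were over- or under-represented with HuD relative to the bead background. Kcnc2 and 1 probe set of Kcnma1 were higher with HuD, both Kcna2 probe sets, 1 of Kcnd2 and 2 others of Kcnma1 were lower, and Kcna1, Kcna4, Kcnc1 and Kcnq3 had no probe set past the threshold. In all, 2 of 21 tested probe sets (9.52%) were called higher and 5 (23.8%) lower by limma at an adjusted p under 0.05. The 5 include the Kcnma1 probe set that would fall below the filter limit without the IgG arrays. It reached the test only through the group where it was high, so its lower call carries no weight. Over all 22518 tested probe sets 14.7% were higher and 26% lower, so the shares for the channels were no higher than the background in either direction. The median log2 difference was −0.26 for the channels and −0.26 for all tested probe sets. With other scalings the division of all calls changed. Higher calls made up 36.1% of all calls as deposited, 62.6% with the arrays scaled to their 75th percentile, 58.3% with median scaling and 51.5% with quantile normalization, which moved the median of all probe sets by 0.28, 0.24 and 0.21. The direction and call of the 7 channel probe sets past the threshold held under each of these.

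**Figure D1:**
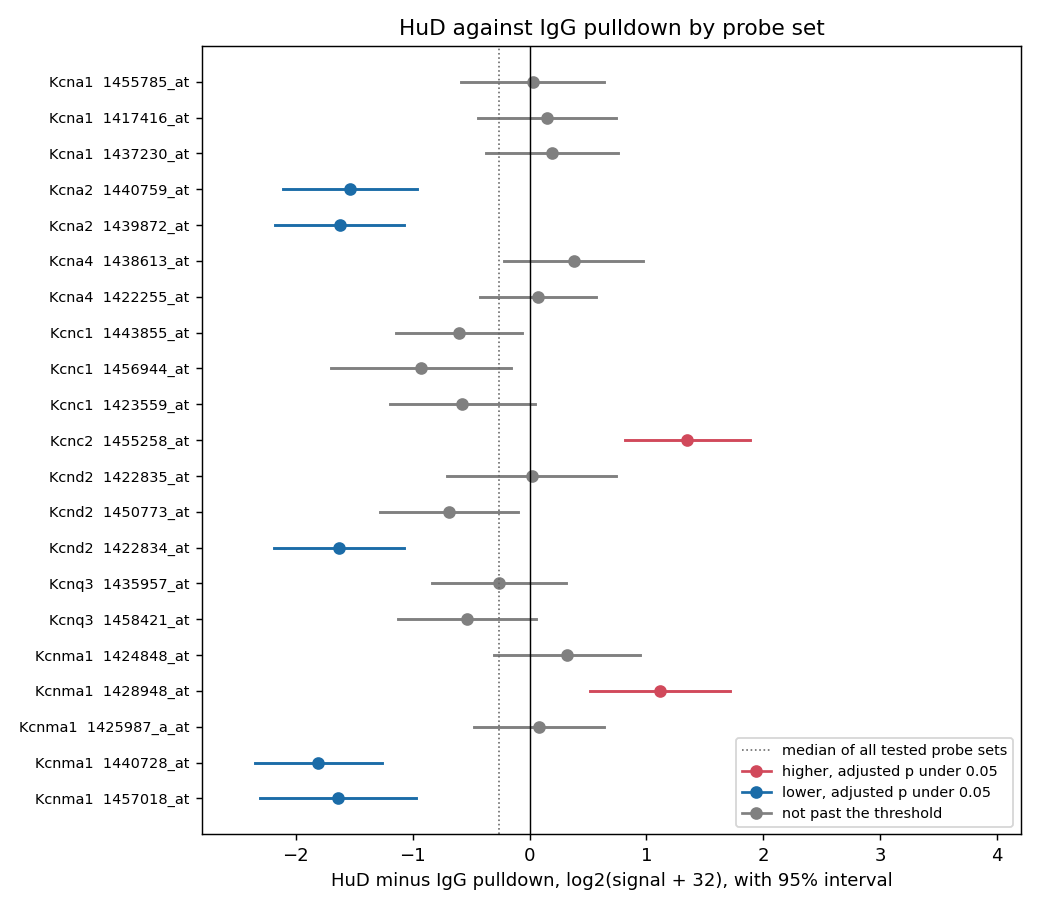
HuD minus IgG difference on the log2(signal + 32) scale, with its 95% interval, for the 21 tested channel probe sets. Kcnc2 and Kcnma1 1428948_at lie above 0, and 5 probe sets of Kcna2, Kcnd2 and Kcnma1 lie below it. The dimmer of the Kcnma1 probe sets called lower reached the test only through its IgG signals. The grey ones did not pass the threshold, and the dotted line at −0.26 is the median of all tested probe sets.

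Among the Kv3 genes, Kcnc2 (Kv3.2) was read by a single probe set, 1455258_at. Its signal was 1992, 2157 and 2114 on the HuD arrays, 743 and 857 on the IgG arrays and 1007 on the input. The HuD arrays lay close together and well above all others, and the groups did not overlap. The difference from IgG was 1.35 ± 0.25 on the log2 scale (SE; 2.55-fold, adjusted p = 0.00193), which is 1.61 above the median of all tested probe sets. Against the input Kcnc2 was higher by 1.03 ± 0.31 (2.04-fold, adjusted p = 0.0323), a call that was lost when any of the 3 HuD arrays was left out (differences of 1.00 to 1.06), with median scaling or quantile normalization (0.87 in each), with the title suffix as replicate block (0.93) and without the filter, where the p is adjusted over more probe sets.

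Kcnc1 (Kv3.1), the close relative of Kcnc2, had no probe set past the threshold. Its brightest probe set, 1443855_at, had 1307, 1233 and 1456 with HuD, 2044 and 2028 with IgG and 1143 in the input. Thus the HuD signals were below both IgG signals and somewhat above the input. The log2 difference from IgG was −0.60 (95% interval −1.14 to −0.07, adjusted p = 0.0678). A second probe set, 1456944_at, had 88.9, 109 and 82.4 with HuD, 346 and 118 with IgG and 191 in the input (difference −0.93, interval −1.70 to −0.16, adjusted p = 0.0525). IgG array 1 was far above IgG array 2 there. The remaining one, 1423559_at, had 101, 92.1 and 89.1 with HuD, 213 and 111 with IgG and 154 in the input (−0.57, interval −1.19 to 0.05, adjusted p = 0.125). All 3 had HuD signals below the IgG signals without passing the threshold. Without IgG array 2, 1456944_at and 1423559_at were at −1.60 and −0.96, and without IgG array 1 at −0.27 and −0.19. With quantile normalization 1443855_at passed (−0.83). It also passed, at the same −0.60, when only the brightest probe set of each gene was tested.

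The log2 difference between Kcnc2 and the brightest Kcnc1 probe set within an array was 0.60, 0.79 and 0.53 on the HuD arrays and −1.42 and −1.21 on the IgG arrays. Such a difference has no meaning as a level, since probe sets differ in brightness, and is used here only to set HuD against IgG. The groups were apart by 1.95, with an exact permutation p of 0.2 (two-sided), the smallest that 3 against 2 arrays can give. Of 26 such pairs of probe sets compared here, 22 within a gene and 4 between relatives, 13 had groups that did not overlap, and the adjusted p of these was 0.4. Most of the 13 lie within Kcnma1 and reuse the same probe sets. The share over all pairs on the array was not computed, so the count says nothing about the channels. Kv3 channels are known from parvalbumin interneurons. Of 8 interneuron markers 1 was called higher with HuD (Pvalb, by 1.44), 4 lower (Gad1, Slc32a1, Sst and Npy) and 3 did not pass, where 16% of all genes were higher and 28.2% lower. Their summed signal ranged from 6001 to 8401 on the HuD arrays, was 8633 and 11069 on the IgG arrays and 10350 on the input, and none was at 0. A second tested probe set of Gad1 did not pass between HuD and IgG (−0.18). The part of cell type in the Kcnc values was not tested. In RNA pulled down from whole tissue, the number of cells of a type, the RNA per cell and the share captured on the beads cannot be told apart.

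**Figure D2:**
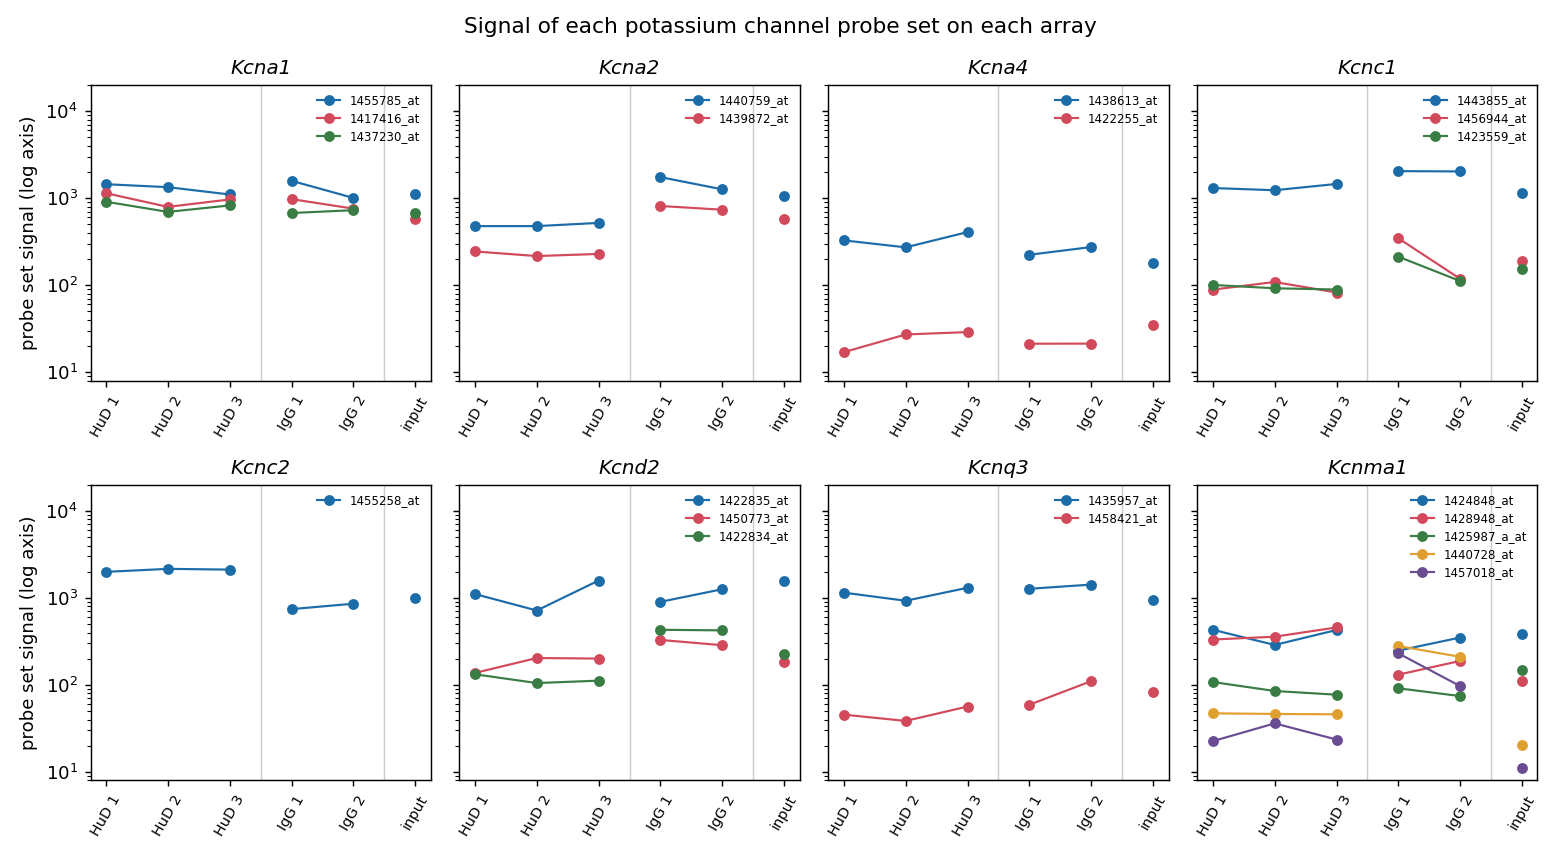
Signal on a log axis for each tested channel probe set on each of the 6 arrays, 1 panel per gene, with points of a group joined. Kcnc2 is highest on the 3 HuD arrays (1992 to 2157), both Kcna2 probe sets are lowest there, and the Kcnma1 probe sets cross, with 1440728_at and 1457018_at higher on both IgG arrays than on the HuD arrays and the input.

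Among the Kv1 genes, Kcna2 (Kv1.2), a subunit of axons and terminals, was lower with HuD at both of its bright probe sets. At 1440759_at the signals were 477, 477 and 519 with HuD, 1744 and 1261 with IgG and 1056 in the input. At 1439872_at they were 244, 216 and 229 with HuD, 812 and 737 with IgG and 583 in the input. On both, every HuD array was below every other array, and the IgG arrays lay above the input. The differences from IgG were −1.54 ± 0.26 (2.90-fold lower, adjusted p = 0.00142) and −1.62 ± 0.25 (3.08-fold lower, adjusted p = 0.000919). Against the input they were −1.06 ± 0.33 (adjusted p = 0.0371) and −1.24 ± 0.32 (adjusted p = 0.0174). The call against input was lost for 1440759_at without any of the 3 HuD arrays (−1.04 to −1.10) and for 1439872_at without HuD array 1 (−1.27) or 3 (−1.23), and both were lost with the 75th percentile scaling (−0.62 and −0.82) and with the title suffix as replicate block (−0.95 and −1.15). For 1440759_at the call also ended without the filter, where more probe sets are tested, and on averaging the probe sets of the gene (−0.45). The other 2 probe sets of the gene were dim, with at most 46.0 on any array, and gave no reading of it. When all 4 were averaged the fall was −0.61 and still passed.

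Kcna1 (Kv1.1), whose mutations can cause episodic ataxia and seizures, had no difference past the threshold at any of its 3 bright probe sets. At 1455785_at the signals were 1446, 1337 and 1102 with HuD, 1582 and 1006 with IgG and 1128 in the input, a difference of 0.03 with an interval of −0.58 to 0.64 (adjusted p = 0.946). The HuD values lay between the IgG values. At 1417416_at they were 1141, 794 and 966 with HuD, 975 and 758 with IgG and 579 in the input (0.15, interval −0.45 to 0.74, adjusted p = 0.687). At 1437230_at they were 910, 695 and 825 with HuD, 675 and 727 with IgG and 676 in the input (0.19, interval −0.37 to 0.76, adjusted p = 0.576). The groups overlapped on all 3, and the intervals reach from −0.58 to 0.76 on the log2 scale.

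Within an array, the log2 signal of Kcna1 at 1455785_at minus that of Kcna2 at 1440759_at was 1.54, 1.43 and 1.04 with HuD and −0.14 and −0.32 with IgG. These groups were apart by 1.56 (exact permutation p = 0.2, the smallest possible). Kcna4 (Kv1.4), the inactivating Kv1 subunit, had 327, 272 and 408 with HuD, 224 and 274 with IgG and 178 in the input at 1438613_at. Its HuD and IgG signals overlapped narrowly, with all 5 pulldown arrays above the input, and the difference was 0.38 (interval −0.22 to 0.97, adjusted p = 0.286). The second probe set of Kcna4, 1422255_at, was near the floor at 17.0 to 35.3 on all arrays (0.07, adjusted p = 0.815).

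Kcnd2 (Kv4.2) gave unlike readings from its probe sets. At 1422834_at the signals were 133, 105 and 112 with HuD, 430 and 424 with IgG and 228 in the input. The HuD arrays were lowest, the input was between and the IgG arrays were highest, with a difference of −1.63 ± 0.26 between the pulldowns (3.10-fold lower, adjusted p = 0.000919). At 1450773_at they were 137, 204 and 201 with HuD, 329 and 286 with IgG and 183 in the input, with HuD again below IgG but not past the threshold (−0.69, interval −1.28 to −0.10, adjusted p = 0.0605). At 1422835_at, the brightest, they were 1107, 716 and 1583 with HuD, 901 and 1258 with IgG and 1568 in the input. There the HuD arrays spread across the whole range of the others and the difference was 0.02 (interval −0.70 to 0.74, adjusted p = 0.966). Averaging all 4 probe sets of Kcnd2, the dim one included, gave −0.63, which passed (adjusted p = 0.0237). The 6 excitatory neuron markers had a summed signal of 4282 to 6111 on the HuD arrays, 4290 and 5011 on the IgG arrays and 3434 on the input. By brightest probe set 2 were called higher and 4 were not past the threshold, where 16% of all genes were higher and 28.2% lower. Camk2a, not past at −0.97, had 2 of 3 other tested probe sets called lower (−1.44 and −0.97). Another probe set of Neurod2, which was called higher, did not pass (0.42).

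The log2 signal of 1422835_at minus that of 1422834_at was 2.79, 2.45 and 3.49 on the HuD arrays and 1.01 and 1.5 on the IgG arrays, apart by 1.65 (exact permutation p = 0.2). The annotation used here names no target sequence for these probe sets, so where they lie on the Kcnd2 transcript is not known here. Kcnq3 (Kv7.3) had 1149, 927 and 1308 with HuD, 1272 and 1423 with IgG and 935 in the input at 1435957_at, with overlapping groups (−0.26, interval −0.83 to 0.31, adjusted p = 0.445). Its second probe set, 1458421_at, had 45.5, 38.6 and 56.5 with HuD, 59.2 and 111 with IgG and 83.0 in the input. HuD was below IgG there by 0.54 without passing (interval −1.13 to 0.05, adjusted p = 0.130), it passed without IgG array 1 (−0.86), and it was at −0.22 without IgG array 2.

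Kcnma1, the BK channel, was read by 5 probe sets, and their calls went in opposite directions. At 1428948_at the signals were 332, 358 and 458 with HuD, 131 and 189 with IgG and 111 in the input. All HuD arrays were above all others, by 1.12 ± 0.28 against IgG (2.17-fold, adjusted p = 0.00823) and by 1.52 ± 0.35 against the input (2.87-fold, adjusted p = 0.0106). At 1440728_at they were 47.2, 46.4 and 46.0 with HuD, 280 and 210 with IgG and 20.3 in the input. At 1457018_at they were 22.6, 36.1 and 23.6 with HuD, 231 and 96.8 with IgG and 11.1 in the input. Both of these were high on the IgG arrays and low on the HuD arrays and the input, so their lower values with HuD rest on signal that was on the IgG arrays and hardly in the input.

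The differences between HuD and IgG were −1.81 ± 0.25 (3.50-fold lower, adjusted p = 0.000514) at 1440728_at and −1.64 ± 0.31 at 1457018_at. The latter reached the test only through its IgG signals, the group where it was high, so its call among the 5 lower ones carries no weight. IgG exceeded the input by 2.39 ± 0.33 (adjusted p = 0.0215) and 2.09 ± 0.41 (adjusted p = 0.0711), while HuD differed from the input by 0.59 and 0.46, neither past the threshold. The IgG call of 1440728_at was lost without HuD array 1 or 2 (2.39 in each case), which enter only through the shared spread, and also with the title suffix as replicate block (2.48) and without the filter. The other 2 probe sets did not pass between the pulldowns. At 1424848_at the signals were 430, 288 and 428 with HuD, 248 and 350 with IgG and 383 in the input (0.32, interval −0.31 to 0.95, adjusted p = 0.395). At 1425987_a_at they were 108, 85.2 and 77.2 with HuD, 91.4 and 74.4 with IgG and 149 in the input (0.08, interval −0.47 to 0.64, adjusted p = 0.814). In both the groups overlapped.

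The log2 signal of 1428948_at minus that of 1440728_at was 2.20, 2.32 and 2.65 on the HuD arrays and −0.93 and −0.13 on the IgG arrays. Their groups were apart by 2.92, the widest gap of the 26 pairs (exact permutation p = 0.2). With its 5 probe sets averaged Kcnma1 was at −0.39, with an adjusted p of 0.0837. By accession type, 1424848_at and 1425987_a_at were designed on mRNA or cDNA records and the other 3 on expressed sequence tags, which are partial reads of cDNA clones. Which part or strand of the locus each reads was not analysed here.

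The comparisons of HuD and IgG with the input share the 1 input array, which has no replicate, and the fit gives it the spread of the pulldown arrays. HuD against input called 2 of 21 channel probe sets higher (Kcnc2 and Kcnma1 1428948_at) and 2 lower (both of Kcna2), where 9.75% of all tested probe sets were higher and 15.6% lower. IgG against input called 1 channel probe set higher (Kcnma1 1440728_at) and 0 lower (limma; 0 also at an unadjusted p under 0.05), where 0.235% of all tested probe sets were higher and 0.00444% lower. The 4 calls against input had the same direction as against IgG, and those 2 comparisons share the HuD arrays. Kcna2 was the channel gene whose lower value with HuD stood below both the IgG arrays and the input at each bright probe set. At Kcnd2 1422834_at the HuD value was below the input by 0.81, which did not pass (adjusted p = 0.0821).

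**Figure D3:**
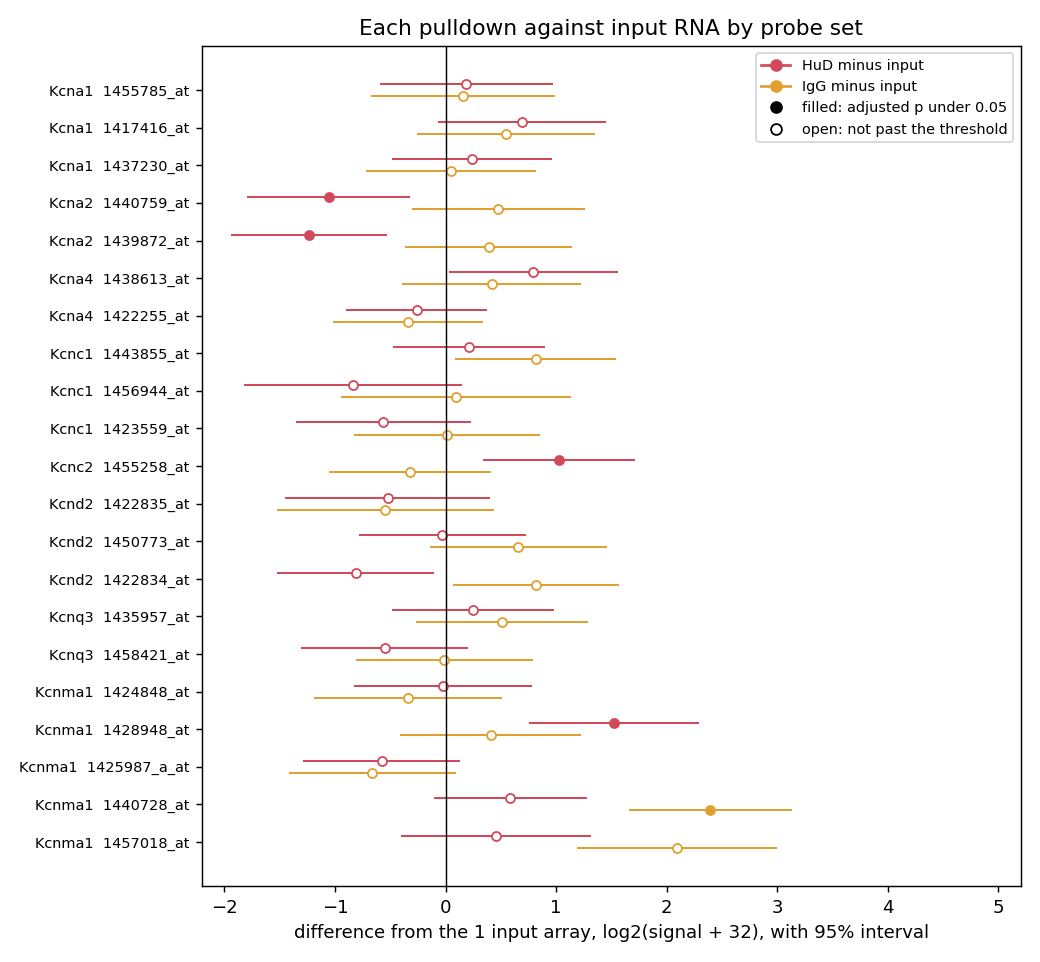
Difference of the HuD pulldown (red) and of the IgG pulldown (yellow) from the 1 input array on the log2(signal + 32) scale, with 95% intervals; filled points passed the threshold. HuD is past it at both Kcna2 probe sets, at Kcnc2 and at Kcnma1 1428948_at, and IgG at Kcnma1 1440728_at.

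Since the HuD and IgG signals of the called probe sets do not overlap, differences within the labels' title suffixes show their size and could not turn. For the arrays with the suffix le1 (HuD array 1 and IgG array 1) the difference was 1.38 for Kcnc2, −1.80 and −1.61 for Kcna2, −1.49 for Kcnd2 1422834_at and 1.16, −1.98 and −2.27 for Kcnma1 1428948_at, 1440728_at and 1457018_at. For the suffix e1_le1 (HuD arrays 2 and 3 and IgG array 2) the same differences were 1.28, −1.29, −1.60, −1.70, 0.99, −1.63 and −1.07. What the suffixes stand for is not given in the sources used here.

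**Figure D4:**
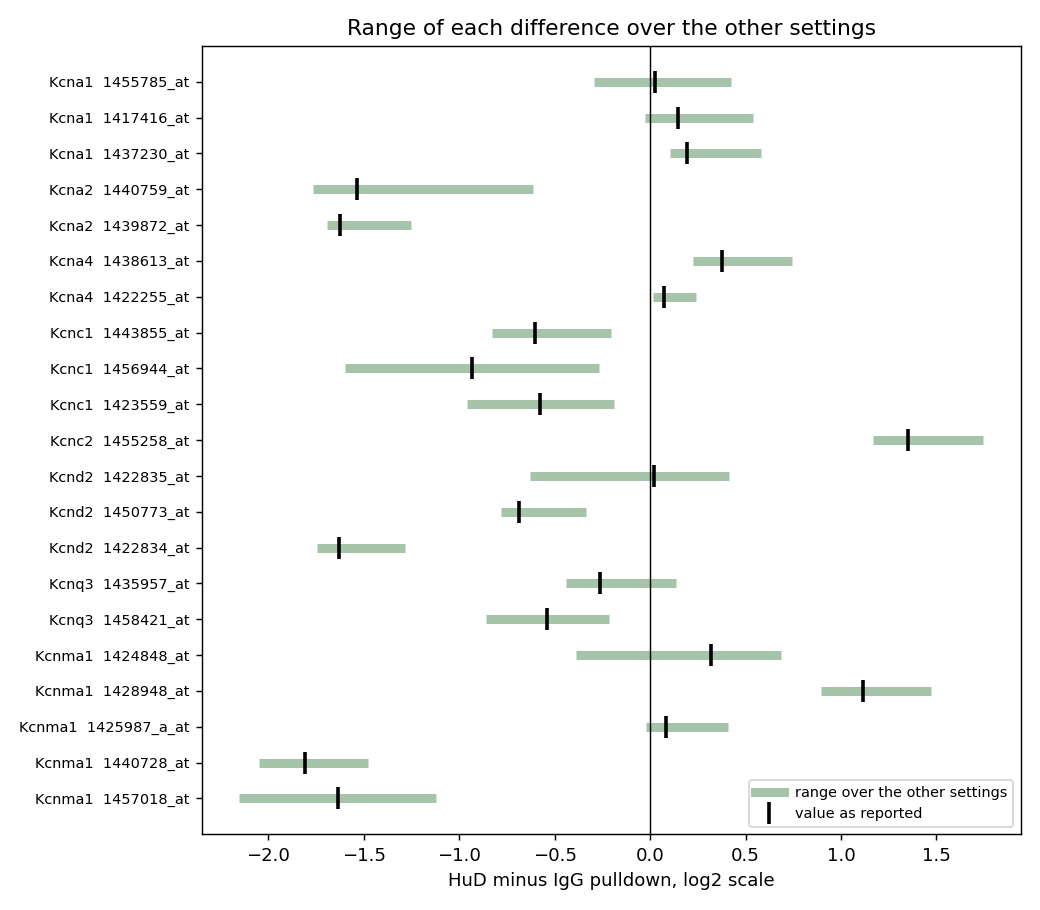
HuD minus IgG difference as reported (black bar) and its range over the other settings run (green) for each tested channel probe set. The 7 called probe sets stay on their side of 0, from 0.90 upward for Kcnma1 1428948_at and from 1.17 upward for Kcnc2, while the ranges of 2 Kcna1 probe sets, Kcnd2 1422835_at, Kcnq3 1435957_at and 2 Kcnma1 probe sets cross 0.

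Other genes of these channel complexes were read by their brightest probe sets. Over the 11957 genes tested by their brightest probe set 16% were called higher with HuD than with IgG and 28.2% lower, with a median of −0.29. Of 39 other pore subunits of voltage-gated and calcium-activated potassium channels 30 were found on the array by symbol and 19 were tested. With HuD 2 were higher than with IgG, 5 were lower and 12 did not pass, and their median was −0.52. The lower calls were near the background share. The silent subunit Kcnv1 (1.22 ± 0.34, adjusted p = 0.0141) and Kcnq5, a further M-current subunit (0.81 ± 0.27, adjusted p = 0.0296), were higher. Lower were the ERG channel gene Kcnh2 (−1.34 ± 0.25, adjusted p = 0.00217), the Kv1 gene Kcna6 (−1.33), the modifier subunit Kcng1 (−1.24), the ether-a-go-go relative Kcnh3 (−0.80) and the Kv4 gene Kcnd1 (−0.77). Another probe set of Kcnq5 was called lower (−1.58), as was another of Kcnh3 (−0.99). Those of Kcnv1, at 0.70 and −0.54, missed the threshold, as did others of Kcna6 (−0.45), Kcnd1 (−0.31) and Kcnh3 (−0.74). Kcnn1 and Kcnt1 did not pass at their brightest probe sets (−0.26 and −0.71), but another of each was called lower (−1.19 and −1.03). The remaining one of Kcnt1 did not pass (−0.65).

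Auxiliary subunits bind the pore subunits and set their gating and traffic. Of 18 listed 13 were tested, of which 1 was higher, 5 were lower and 7 did not pass (median −0.29, against the same 16% higher and 28.2% lower over all genes). Kcnab1, the Kv1 beta subunit that can inactivate Kv1 channels, was higher (1.14 ± 0.31, adjusted p = 0.0119), with signals of 1436, 855 and 1309 with HuD, 415 and 635 with IgG and 1262 in the input. The HuD arrays were above both IgG arrays but around the input. The partners of Kv4 channels gave mixed readings. The calcium-binding Kcnip3 (−1.92 ± 0.24, adjusted p = 0.000360), Kcnip2 (−1.13) and Kcnip1 (−1.10) and the peptidase-like Dpp6 (−1.04) were lower, and Kcnip4 (−0.11) and Dpp10 (−0.03) did not pass. Kcnip3 had 7.52, 14.5 and 9.15 with HuD, 132 and 123 with IgG and 355 in the input, so its HuD arrays were close to the floor. The BK beta subunit of neurons, Kcnmb4, was lower as well (−1.01 ± 0.29, adjusted p = 0.0177). Second probe sets of Kcnip3 (−0.18), Kcnip1 (−0.25) and Dpp6 (0.00) did not pass, and 1 of Dpp10 was called higher (1.11).

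All 9 partners that cluster Kv1 or Kv7 channels on axons were tested, and 3 were higher, 2 lower and 4 not past the threshold (median −0.21, again against 16% and 28.2% over all genes). With so few genes these counts say little about the list. The cytoskeletal linker Epb41l3 (2.06 ± 0.31, adjusted p = 0.000808), the LGI1 receptor gene Adam22 (1.23 ± 0.29) and Dlg4, which encodes PSD-95 (0.87 ± 0.27), were higher, Dlg4 also at 2 further probe sets (1.71 and 1.21). Second probe sets of Adam22 (−0.19) and Epb41l3 (0.69) did not pass. Cntnap2 did not pass at its brightest probe set (−0.53) but was called higher at another (1.06). Cntn2, an adhesion molecule of the juxtaparanode (−1.30 ± 0.40), and Lgi1, a secreted ligand whose loss causes epilepsy (−0.69 ± 0.26), were lower. Of the 18 genes of these 3 lists past the threshold only Epb41l3, Kcnh2 and Kcnip3 kept their call under all 17 other settings. The share of kept calls over all genes was not computed, so these losses do not set the lists apart. Leaving out HuD array 1, 2 or 3 ended 12, 6 and 8 of the 18 calls, and leaving out IgG array 1 or 2 ended 11 and 3. With the 75th percentile scaling 3 pore subunits were higher and 3 lower, and 2 auxiliary subunits were higher and 1 lower. Over all tested probe sets that scaling gave 4715 higher and 2818 lower calls, against 3309 and 5861 as deposited. The list counts thus moved the same way as those of the whole array.

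**Figure D5:**
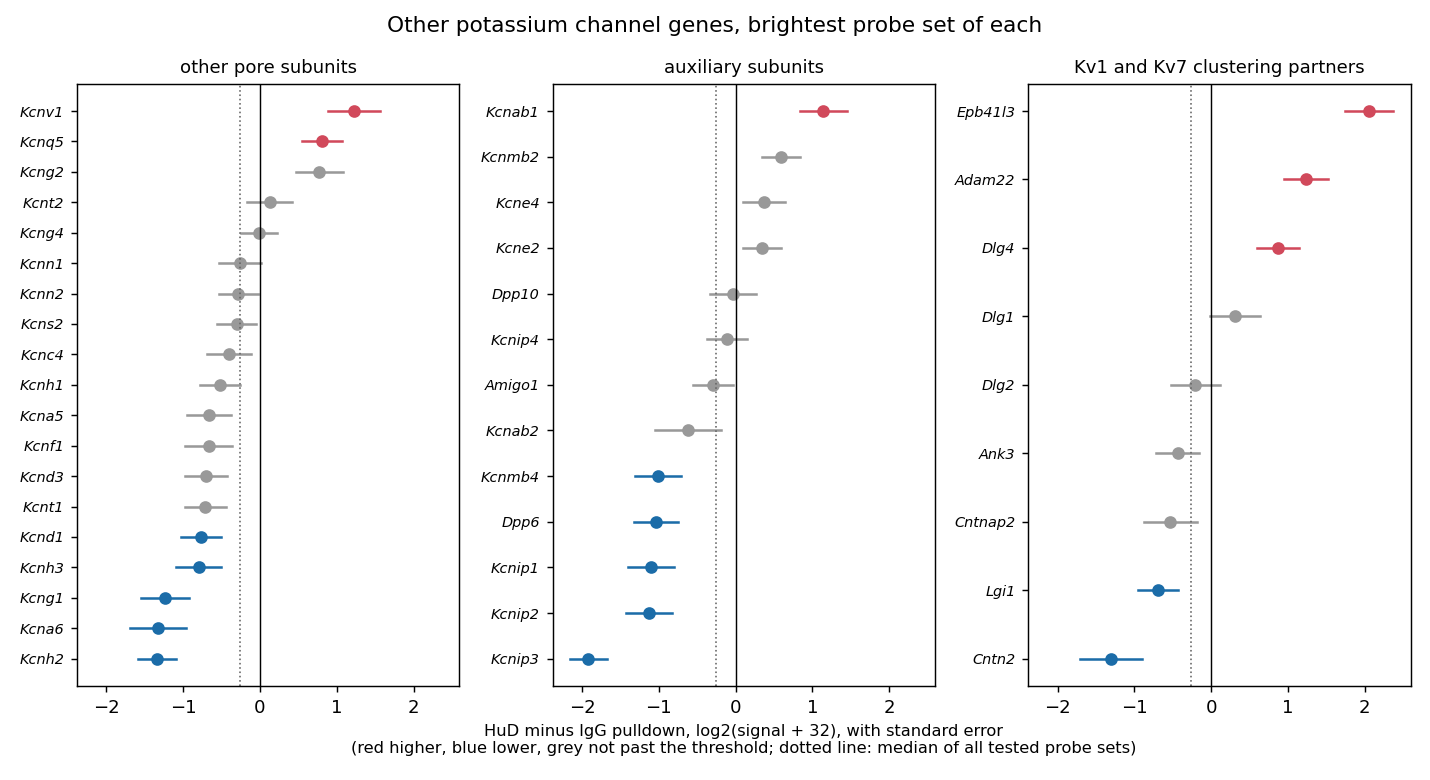
HuD minus IgG difference on the log2(signal + 32) scale with its standard error for each tested gene of the 3 lists, by its brightest probe set; red and blue mark genes called higher and lower, grey those not past the threshold, and the dotted line the median of all tested probe sets (−0.26). Epb41l3 at 2.06 and Kcnip3 at −1.92 lie farthest out.

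For each channel the genes nearest in pattern were sought by the root mean square distance of log2 signals over the 6 arrays, each centred on its own mean, among 19078 to 19082 probe sets with 1 gene symbol. Nearest to Kcnc2 were Scrn3 (distance 0.06, HuD minus IgG 1.28) and Sh3kbp1 (0.07, 1.32), and nearest to Kcna2 were Lyst (0.08, −1.40) and Cttnbp2 (0.08, −1.46). Kcna1 lay nearest to the splicing regulator Rbfox1 (0.05) and to Dpy19l1 (0.07), Kcna4 to Mthfd2l (0.04) and Cdca4 (0.05), and Kcnc1 to Trip11 (0.05) and Ovgp1 (0.05). Kcnd2, by its variable brightest probe set, lay nearest to Tbcc (0.09) and Mettl21a (0.11), Kcnq3 to Mknk2 (0.05) and Vezt (0.06), and Kcnma1, by 1424848_at, to Arf6 (0.05) and Rab2a (0.05). With only 6 arrays and so many candidates, close patterns of this kind describe the arrays and nothing more.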

How the data were processed

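Per the labels, RNA of 6 samples was hybridised to 1-colour arrays. The authors deposited an intensity for each probe set, not on a log scale. Leaving out the lowest and highest 2%, its mean was 149.939 to 149.956 on every array, so the arrays had been brought to a common level. For the deposited intensities the software, detection calls and background correction are not given in the sources used here. Left out were the 64 array controls. Genes were named from the platform annotation, where 34945 probe sets had 1 symbol, 932 several and 9160 none, and all 8 channel symbols matched the RefSeq gene table.

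Signals were transformed as log2(signal + 32), so folds understate changes of dim probe sets. The 22518 probe sets above the median mean log2 signal were fitted with limma 3.58.1 in R 4.3.3 (1 mean per group over all 6 arrays, eBayes with a trend, 3 residual and 9.09 prior degrees of freedom). Adjusted p-values are limma's, by Benjamini-Hochberg over all tested probe sets, with a threshold of 0.05, and errors after ± are standard errors. The number of arrays limits the precision. Array numbers within a group follow accession order. The fit was tested on simulated data. Alternatives were the offset, filter, scaling, trend, 1 value per gene, blocks from the titles, the pulldown arrays alone and leaving out each array. Every channel probe set is described, and list genes are named where past the threshold, up to 6 in each direction, with other probe sets of these genes and a few others added after their values were seen. Members and lists were chosen with earlier results of these data known. Pairs of probe sets were compared by a two-sided exact permutation test over the 5 pulldown arrays.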

Additional observations from a re-analysis of the deposited data

How the results depend on the processing

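The 7 channel probe sets past the threshold between HuD and IgG kept direction and call in all 109 values from other settings. Kcnma1 1457018_at is among them and was tested through its IgG signals. Only Kcnc2 and the brightest Kcna2 probe set were scored in all 17 settings. The others had 15, without the brightest probe set or the average of a gene. The 7 were chosen by their call, and their groups do not overlap. Leaving out an array could thus not turn their direction. For these 7, the title number as replicate block gave the same difference as leaving out HuD array 2. Of the sign changes between HuD and IgG one passed the threshold, Kcnd2 by averaging its probe sets (−0.63). Kcna1 1455785_at turned with quantile normalization (−0.18), with the title number as replicate block (−7.7e-05) and without HuD array 1 or 2 or IgG array 2 (range without an array −0.29 to 0.35), and Kcna1 1417416_at without IgG array 2 (range −0.026 to 0.32). Kcnd2 1422835_at also turned with quantile normalization (−0.12), the title suffix as replicate block (−0.0086) and without HuD array 3 (−0.25) or IgG array 1 (−0.21). Kcnq3 1435957_at turned with 75th percentile (0.13) or median scaling (0.070), Kcnma1 1424848_at and Kcnq5 on averaging (−0.39 and −0.42), and Kcnma1 1425987_a_at on leaving out HuD array 1 (−0.019) or IgG array 2 (−0.024), within a range up to 0.19. For IgG against input Kcna2 turned with median scaling (−0.095 and −0.016). The cause was not tested.

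Between HuD and IgG the 3309 higher calls over all probe sets became 1958 with the brightest probe set per gene and 1493 on averaging, where fewer features are tested, and the 5861 lower calls became 3093 and 2994. With 75th percentile scaling, median scaling and quantile normalization 2818, 3063 and 3774 were lower. Without an array 2299 to 3239 were higher and 3194 (without HuD array 1) to 6046 lower. Of the channels 1 was higher and 2 were lower with the brightest probe set or averaging, and 2 were higher and 5 to 7 lower without an array.

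Of HuD against input 2196 calls were higher and 3515 lower. Higher calls were 1225 without the filter, 3473 with 75th percentile scaling, 1427 with the brightest probe set and 929 on averaging. Lower calls were 1444 without the filter, 1340 with 75th percentile scaling, 2227 with quantile normalization, 2084 on averaging and 2222 with the title suffix as replicate block. Leaving out an array gave 1201 (HuD array 1) to 3061 higher and 1350 (HuD array 1) to 5213 lower. The 2 higher channel probe sets became 4 with 75th percentile scaling and 1 with no filter, median scaling, quantile normalization, the brightest probe set, averaging or the title suffix as replicate block, and 1 to 2 without an array. The 2 lower ones became 1 with no filter or the brightest probe set, and 0 with 75th percentile scaling, averaging or the title suffix as replicate block, where limma gave 1, 0 and 2 at an unadjusted p under 0.05. Without an array 0 to 4 were lower.

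Of IgG against input 53 calls were higher and 1 was lower. Higher calls were 29 with an offset of 64, 21 with median scaling, 22 with quantile normalization, 2 with the brightest probe set and 0 with no filter, averaging or the title suffix as replicate block (limma, 2430, 277 and 1383 at an unadjusted p under 0.05). Lower calls were 4 with median scaling and 0 with no filter, the brightest probe set, averaging or that block (896, 332, 347 and 524 unadjusted). The 1 higher channel probe set became 0 in these 4 settings (4, 1, 1 and 4 unadjusted). Without an array 0 to 524 were higher and 0 to 64 lower, and 0 to 2 channel probe sets were higher and 0 lower.

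The title numbers were not taken to pair the arrays, since the labels do not say what they stand for. Deviations from group means correlated at −0.04 and 0.31 in the pairs that share a number, HuD array 1 with IgG array 1 and HuD array 3 with IgG array 2. Between HuD array 2 and IgG array 2, which share none, the correlation was −0.30. Deviations cancel within a group, so these correlations are tied to one another and cannot decide whether the arrays are paired. With the title numbers as replicate block 7 channel probe sets were lower between HuD and IgG, as Kcnc1 1456944_at (−1.02) and Kcnd2 1450773_at also passed. Over all 22518 tested probe sets the lower calls also rose with this block, from 5861 to 6331. Leaving out an IgG array leaves 1, which is assumed to vary like the other groups, and the exact permutation p of the probe set pairs, whose alternatives were chosen after seeing the data, then cannot go below 0.5, or 0.333 without a HuD array.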
